A study of Mus musculus with 4 samples.

Results

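Solute carriers are membrane proteins that move sugars, amino acids, fatty acids, lactate, inorganic ions, metals, vitamins and other small molecules across the plasma membrane and the membranes of organelles. Signals of their genes (symbols that start with Slc) were described in mouse aorta. Members were the probe sets whose platform annotation names 1 gene with such a symbol, with the mitochondrial Slc25 and the organic anion Slco carriers left out, and with a deposited signal above 83.4 on at least 2 of the 4 arrays. That limit is the 40th percentile of all deposited values. It kept 201 probe sets of 142 genes in 44 families, out of 354 Slc probe sets of 229 genes in 48 families and out of 22626 probe sets in all. The other 153 Slc probe sets were not kept, so 87 Slc genes are not described, apart from a few named below. Because the signals themselves chose the members, how many are above the limit is no finding. The members just inside had second-highest signals of 84.0 (Slc38a5) and 84.8 (Slc7a4), and the probe sets just outside had 83.1 (Slc15a4) and 83.3 (Slc6a4). By the rule 10 probe sets of 3 genes (Slc9a3r1, Slc9a3r2 and Slc4a1ap) are members, which code for binding partners named after a carrier and not for transporters.

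The aortas came from female apoE-/- mice, which lack apolipoprotein E, the protein by which remnant lipoproteins are cleared from blood. There were 4 groups: C3H/HeJ (C3H below) on Western diet, C3H on chow, C57BL/6 on Western diet and C57BL/6 on chow, all apoE-/- and all aged 6 weeks. All were weaned at 3 weeks, and the Western groups left chow at 4 weeks, for 2 weeks of Western feeding. Each group had 1 array, the labels do not say whether 1 animal or several gave its RNA, and no mouse with intact Apoe was analysed here. The strains are known for unequal lesions under this genotype, large in C57BL/6 and small in C3H, so the comparisons ask how the carriers of the aorta differ between the strains and with diet.

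A carrier family shares sequence and often substrates, and its number names it. Family 2 holds facilitative glucose transporters, family 27 fatty acid transport proteins, family 16 monocarboxylate transporters that move lactate and pyruvate with a proton, and family 12 cotransporters of chloride with sodium or potassium. In an artery wall, smooth muscle uses chloride and bicarbonate carriers to set cell volume, pH and contractility, while the fat around the vessel is known for insulin-driven glucose uptake and fatty acid uptake. Families 30 and 39 move zinc, family 35 brings nucleotide sugars into the Golgi apparatus and endoplasmic reticulum, and families 1, 6, 7 and 38 carry amino acids.

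Signals below are intensities after quantile normalization. A floor of 83.6, the 40th percentile of these values, was set, and a probe set is called measured in a pair when both arrays are above it. A difference is given as log2 of the first over the second named group, and 2-fold marks a difference large enough to count. Where an array was at or under the floor it was raised to the floor and the fold is written "at least". A probe set name with suffix s or x marks probes that may also bind other transcripts. Besides those pointed out below, this holds for the probe sets of Slc22a29, Slc46a1 and Slc39a7. It also holds for some of Slc38a10, Slc41a3, Slc35a2, Slc35a4 and Slc9a3r2. With 1 array a group, no difference between a pair of arrays has a replicate or a test, so words such as higher and lower describe these arrays. In such bulk samples, fewer cells of a type and less RNA per cell cannot be told apart.

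One array, C3H chow, differed from the rest in some measures. For actin the 3' to 5' ratio reached 2.28 there, and it was 1.63 to 1.83 on the other arrays, while for GAPDH it was 1.19, inside the 1.03 to 1.28 of the others. Across the 201 members its log2 signals correlated with those of the other arrays at 0.378 to 0.422. C3H Western correlated with C57BL/6 Western at 0.447 and with C57BL/6 chow at 0.435, little above these, and the C57BL/6 pair correlated at 0.563. These values describe these arrays and share the probe sets. Summed signals of 7 brown adipocyte markers were 57606 on C3H Western, 85053 on C3H chow, 49898 on C57BL/6 Western and 43127 on C57BL/6 chow, with all 7 above the floor on every array. All 7 were highest on C3H chow, but by unlike sizes, which the sum does not show. On C3H Western and C3H chow, Cox8b had 25040 and 29004 and Cidea 17796 and 20856. On the same arrays Dio2 had 457.1 and 3451 and Ppargc1a 120.8 and 831.0. Smooth muscle markers (8 genes) summed to 70852, 43743, 74981 and 99189 on C3H Western, C3H chow, C57BL/6 Western and C57BL/6 chow, all 8 above the floor throughout. That list matches the aorta label, while the brown adipocyte markers above and the heart muscle markers below belong to other tissues. Heart muscle markers (8 genes) summed to 475 on C3H Western and 434 on C3H chow, with 2 of 8 above the floor on each, and to 12189 on C57BL/6 Western and 15563 on C57BL/6 chow, with 8 of 8 above it. The strain difference on chow and the diet difference in C3H both rest on the C3H chow array; the strain difference on Western diet and the diet difference in C57BL/6 do not, and stand beside them below.

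On chow, C3H exceeded C57BL/6 for more of the measured members than the reverse. Of 136 measured members (102 genes), 14 were at least 2-fold higher in C3H (10.3%), against 8.20% of all measured probe sets, and 8 were at least 2-fold lower (5.88%), against 8.94%. The median difference was 0.23, and over all measured probe sets it was 0.03. There were 84 members above 0, a count not given for all probe sets. Of the 14 higher, 2 were probe sets of the binding partner Slc9a3r2, and Slc12a2 and Slc2a4 gave several each. With 1 probe set per gene 10 of 101 were higher and 4 lower. On Western diet, without the C3H chow array, 5 of 127 measured members were at least 2-fold higher (3.94%, all probe sets 4.17%) and 7 at least 2-fold lower (5.51%, all 4.24%), with a median of -0.12 against 0.01. The share at least 2-fold higher on chow, and both shares on Western diet, were near those of all probe sets.

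Within C3H, members were lower on the Western array more often than higher. Of 139 measured members, 6 were at least 2-fold higher on Western diet (4.32%, all probe sets 6.40%) and 15 at least 2-fold lower (10.8%, all 5.95%), with a median of -0.13 against 0.00. Slc2a4, Slc12a2 and Slc9a3r2 gave several each of the 15 lower. Binding partners gave 1 of the higher and 2 of the lower probe sets. With 1 probe set per gene 3 of 101 were higher and 11 lower. In C57BL/6, 7 of 127 measured members were at least 2-fold higher (5.51%, all 3.79%) and 3 at least 2-fold lower (2.36%, all 3.97%), with a median of 0.15 against 0.00. The scaling of the arrays moved the C3H split, and shares over all probe sets are not given for these scalings. It was 3 higher and 18 lower of 144 with the values as deposited. With equal array medians it was 7 higher and 11 lower of 140, where the median of all probe sets was 0.11 and that of the members -0.04. The strain split on Western diet was 8 higher and 7 lower of 126 with the values as deposited, and that on chow 14 higher and 5 lower of 130 with cyclic loess.

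Of the 96 members above the floor on all 4 arrays, 42 (43.8%) had their highest signal on C3H chow, against 30.6% of all such probe sets. The highest signal was on C3H Western for 15, on C57BL/6 Western for 20 and on C57BL/6 chow for 19. The lowest was on C57BL/6 chow for 33 (34.4%, all probe sets 27.4%). For 59 of the 96 (61.5%) the 4 signals stayed within a 2-fold range, as they did for 63.6% of all such probe sets.

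An additive limma fit with terms for strain and diet tested 197 members. It has 1 residual degree of freedom, since the strain-by-diet interaction is its only measure of noise. No member passed for strain at an adjusted p of 0.05, against 0.382% of all 14915 probe sets tested, and none passed for diet, against 0% of all. At an unadjusted p of 0.05, 10 members passed for strain (5.08%, all 5.85%) and 6 for diet (3.05%, all 2.46%). The lowest adjusted p for strain was 0.134, for Slc44a2 (log2 difference C3H minus C57BL/6 -2.04 ± 0.50 SE).

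**Figure D1:**
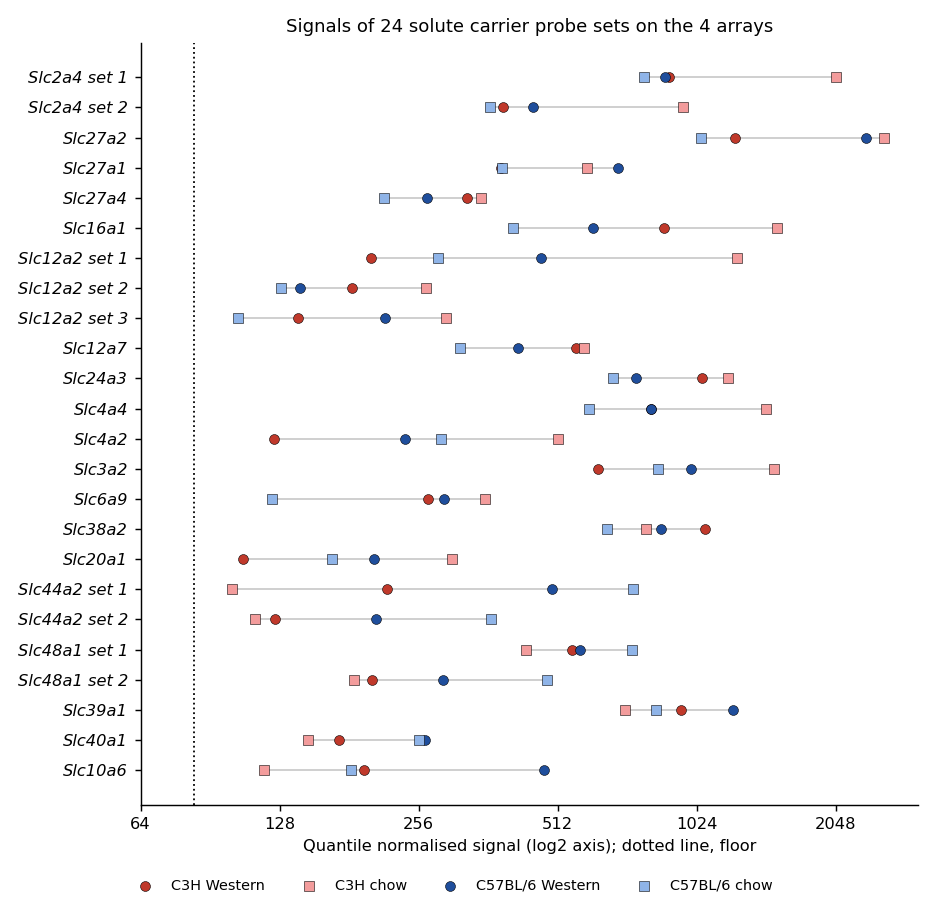
Quantile normalised signals of 24 solute carrier probe sets (rows, grouped by substrate class) on the 4 arrays (points, coloured by group), on a log2 axis with the floor of 83.6 dotted. Where a gene has several probe sets they are numbered. The point of C3H chow lies right of the others for Slc2a4, Slc16a1 and Slc12a2, and that of C57BL/6 chow for Slc44a2 and Slc48a1.

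Glucose transporters were led by Slc2a4 (GLUT4), the insulin-responsive transporter of fat and muscle. Its brighter probe set had signals of 893.8 on C3H Western, 2054 on C3H chow, 875.2 on C57BL/6 Western and 786.6 on C57BL/6 chow. Its other probe set had 390.0 on C3H Western, 957.2 on C3H chow, 452.1 on C57BL/6 Western and 365.5 on C57BL/6 chow. The C3H chow array was high on both probe sets, and the other 3 arrays lay close together. The strain difference on chow was 1.38 and 1.39 (2.61-fold and 2.62-fold), while on Western diet it was 0.03 and -0.21. The Western diet difference in C3H was -1.20 and -1.30, while in C57BL/6 it was 0.15 and 0.31. With equal array medians the brighter probe set fell short of 2-fold for diet in C3H (-0.94).

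Slc2a1 (GLUT1), the transporter of basal glucose uptake in most cells, had 3 members that did not move together. The first had 347.2 on C3H Western, 178.4 on C3H chow, 172.9 on C57BL/6 Western and 289.2 on C57BL/6 chow. That is 1.01 higher in C3H on Western diet and -0.70 on chow. The other probe sets gave -0.15 and 0.21 on Western diet, and -0.71 and 0.30 on chow, so no direction holds over the 3. Slc2a3 (GLUT3, a high-affinity transporter of neurons and blood cells) had 73.0 on C3H Western, 5.92 on C3H chow, 178.9 on C57BL/6 Western and 159.3 on C57BL/6 chow, so C3H was lower by at least 2.14-fold on Western diet and at least 1.91-fold on chow. The name of that probe set marks possible cross-hybridization (suffix s), and the other Slc2a3 probe sets were under the floor on all arrays. Slc37a4, the glucose-6-phosphate carrier of the endoplasmic reticulum, had 113.3 on C3H Western and 237.6 on C57BL/6 Western, a difference of -1.07, and -0.57 on chow (95.7 in C3H and 141.6 in C57BL/6). Its relative Slc37a3 was above the floor on C3H Western (275.7) and C57BL/6 chow (130.2) but not on C3H chow (11.7) or C57BL/6 Western (40.5). Slc5a2 (SGLT2), known as the sodium-glucose cotransporter of the kidney tubule, had 149.0 on C3H Western, 20.5 on C3H chow, 255.0 on C57BL/6 Western and 117.8 on C57BL/6 chow, a diet difference of 1.11 in C57BL/6 on a probe set whose name marks possible cross-hybridization (suffix s).

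Fatty acid transport proteins act as acyl-CoA synthetases as well as uptake proteins. Slc27a2 (FATP2, which activates very long chain fatty acids) had 1238 on C3H Western, 2607 on C3H chow, 2380 on C57BL/6 Western and 1048 on C57BL/6 chow. The high arrays were C3H chow and C57BL/6 Western, so diet ran opposite ways: -1.07 in C3H and 1.18 in C57BL/6, each over 2-fold. With equal array medians the C3H difference was -0.88, short of 2-fold. The strain difference was 1.31 on chow and -0.94 on Western diet. Slc27a1 (FATP1, which moves to the surface of fat and muscle cells under insulin) had 386.4 on C3H Western, 592.3 on C3H chow, 690.2 on C57BL/6 Western and 388.7 on C57BL/6 chow. Its order of the arrays was C57BL/6 Western above C3H chow above the other pair, with diet differences of -0.62 in C3H and 0.83 in C57BL/6. Slc27a4 (FATP4) had 325.7 on C3H Western, 349.4 on C3H chow, 266.3 on C57BL/6 Western and 215.3 on C57BL/6 chow, with diet differences of -0.10 in C3H and 0.31 in C57BL/6. All 3 measured fatty acid carriers were thus above 0 for diet in C57BL/6 and below 0 in C3H, with medians of 0.83 and -0.62. The signs of these medians held with the values as deposited, equal array medians and cyclic loess. Slc22a5 (OCTN2), which brings in carnitine for mitochondrial fatty acid import, had 551.3 on C3H Western, 655.9 on C3H chow, 804.6 on C57BL/6 Western and 718.8 on C57BL/6 chow on its brighter probe set, with diet differences of -0.25 in C3H and 0.16 in C57BL/6. Its other probe set had 190.3 on C3H Western, 304.3 on C3H chow, 258.7 on C57BL/6 Western and 156.9 on C57BL/6 chow. There the diet differences were -0.68 in C3H and 0.72 in C57BL/6, near those of Slc27a1, and the strain difference on chow was 0.96.

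Slc16a1 (MCT1), a carrier of lactate, pyruvate and ketone bodies, had 870.5 on C3H Western, 1527 on C3H chow, 610.2 on C57BL/6 Western and 409.3 on C57BL/6 chow. Both C3H arrays were above both C57BL/6 arrays. The strain difference was 1.90 on chow (3.73-fold) and 0.51 on Western diet (1.43-fold), and the diet differences were -0.81 in C3H and 0.58 in C57BL/6. In the limma fit the strain term was 1.21 ± 0.36 SE with an adjusted p of 0.377. The further measured carboxylate carriers, Slc16a11, Slc16a4 and Slc13a2, differed by 0.38 at most in size in any pair in which they were measured.

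Slc3a2 (CD98, the heavy chain that brings light chains of family 7 to the cell surface) had 625.5 on C3H Western, 1506 on C3H chow, 996.6 on C57BL/6 Western and 843.6 on C57BL/6 chow. C3H chow was the high array and C3H Western the low one, a diet difference of -1.27 (2.41-fold) in C3H, against 0.24 in C57BL/6. The strain difference was 0.84 on chow and -0.67 on Western diet.

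The 250 bases before the annotated start (RefSeq, GRCm38.p6) are shown for Slc27a2, Slc16a1 and Slc3a2, carriers of 3 kinds of fuel or building material that were all high on C3H chow. Capitals mark matches, on either strand, to 5 motifs. These are GGGCGG, the GC box bound by Sp1-like factors. CACGTG is the E-box. AGGTCA is the half-site of nuclear receptors. The letters CCAAT and the TATA box, TATAAA, were searched too. They lie at chr2:126552774-126553023 (plus strand), chr3:104638414-104638663 (plus strand) and chr19:8713898-8714147 (minus strand), and read 5' to 3':
Slc27a2: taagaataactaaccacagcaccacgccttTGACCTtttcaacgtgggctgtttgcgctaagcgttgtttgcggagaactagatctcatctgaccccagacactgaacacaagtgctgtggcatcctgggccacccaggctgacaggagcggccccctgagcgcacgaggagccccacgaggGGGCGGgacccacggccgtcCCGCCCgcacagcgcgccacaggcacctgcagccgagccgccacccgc
Slc16a1: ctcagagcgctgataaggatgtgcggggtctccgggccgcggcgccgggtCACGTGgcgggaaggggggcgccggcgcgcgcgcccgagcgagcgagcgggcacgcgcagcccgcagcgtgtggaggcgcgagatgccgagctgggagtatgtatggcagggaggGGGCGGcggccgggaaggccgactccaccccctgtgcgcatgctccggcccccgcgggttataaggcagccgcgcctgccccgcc
Slc3a2: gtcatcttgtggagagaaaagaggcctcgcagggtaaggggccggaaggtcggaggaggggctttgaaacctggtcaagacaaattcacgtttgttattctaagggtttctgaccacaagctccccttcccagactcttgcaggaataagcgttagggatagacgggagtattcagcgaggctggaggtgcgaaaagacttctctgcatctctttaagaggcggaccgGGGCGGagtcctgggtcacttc
Slc27a2 holds 2 GC boxes and 1 half-site, Slc16a1 holds 1 GC box and 1 E-box, and Slc3a2 holds 1 GC box. Neither CCAAT nor TATAAA is in these windows. RefSeq promoters matched 111 of the 142 member genes (158 promoters). A GC box was in 53.8% of these, in 55.9% of promoters of genes above the limit on at least 2 arrays and in 32.7% of all 32851 promoters. The E-box was in 8.86%, 8.08% and 6.02%, in the same order. The half-site was in 23 of 158, 1069 of 9382 and 4607 of 32851 promoters. CCAAT was in 29.7%, 34.4% and 33.8%, and TATAAA in 6.96%, 7.43% and 12.4%. The carriers' promoters therefore held these letters about as often as those of other genes with signal in these aortas. No motif searched contains another, and a match is not a bound site.

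**Figure D2:**
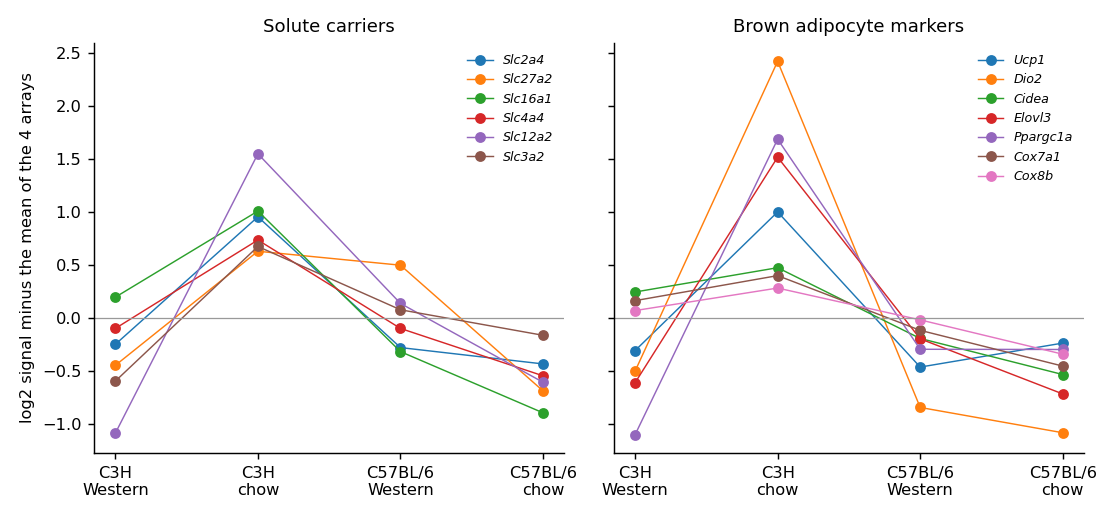
Log2 signal minus its average over the 4 arrays for 6 carriers chosen for their high signal on C3H chow (left) and for 7 brown adipocyte markers (right), by array; lines join the values of 1 probe set and carry no order. The C3H chow array is above 0 for all the carriers and markers drawn.

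Fat markers were measured beside the carriers known from fat. The marker of brown fat heat production Ucp1 had 10130 on C3H Western, 25040 on C3H chow, 9098 on C57BL/6 Western and 10640 on C57BL/6 chow. All 7 brown adipocyte markers had their highest signal on C3H chow, as did Slc2a4, Slc27a2 and Slc16a1. Other carriers known from fat had theirs elsewhere: Slc27a1 on C57BL/6 Western (690.2) and Slc7a10 (Asc-1, a surface marker of white adipocytes) on C3H Western (148.8, against 117.1 on C3H chow). Summed signals of 5 adipocyte markers were 48862 on C3H Western, 61235 on C3H chow, 45471 on C57BL/6 Western and 37841 on C57BL/6 chow, with all 5 above the floor on every array, and Lep was under the floor throughout. Both sums were higher on C3H Western than on C57BL/6 Western, whereas Slc27a2 had 1238 on C3H Western and 2380 on C57BL/6 Western. The part of these markers in the carriers' differences was not tested. The C57BL/6 diet difference of Slc27a2 and Slc27a1, which does not involve the C3H chow array, went with a brown adipocyte sum of 49898 on Western diet and 43127 on chow.

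Chloride cotransporters formed the family with most calls on chow. Of 7 measured members of family 12, 4 were at least 2-fold higher in C3H on chow, with a median of 1.04 (3 with equal array medians, median 0.95), where 8.20% of all measured probe sets were. On Western diet none of 6 was higher (all probe sets 4.17%), 1 was lower (all 4.24%) and the median was -0.03. Slc12a2 (NKCC1, which loads cells with sodium, potassium and chloride and sets chloride in vascular smooth muscle) gave 3 of those 4. Its first probe set had 202.2 on C3H Western, 1252 on C3H chow, 471.6 on C57BL/6 Western and 281.9 on C57BL/6 chow. The second had 183.6 on C3H Western, 265.6 on C3H chow, 141.9 on C57BL/6 Western and 129.1 on C57BL/6 chow. The third had 140.0 on C3H Western, 293.9 on C3H chow, 216.0 on C57BL/6 Western and 103.8 on C57BL/6 chow. C3H chow was the highest array on all 3. C3H exceeded C57BL/6 on chow by 4.44-fold, 2.06-fold and 2.83-fold, and the log2 strain difference on Western diet was -1.22, 0.37 and -0.63. The diet difference was -2.63, -0.53 and -1.07 in C3H, against 0.74, 0.14 and 1.06 in C57BL/6. With equal array medians the third was -0.97 in C3H, short of 2-fold. All 3 thus had a negative sign in C3H and a positive one in C57BL/6, although the sizes spread widely.

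The 4th call was Slc12a5 (KCC2, known as the chloride extruder of neurons), with 14.3 on C3H Western, 284.7 on C3H chow, 107.1 on C57BL/6 Western and 100.7 on C57BL/6 chow. C3H chow was again the high array, 2.83-fold above C57BL/6 chow and at least 3.41-fold above C3H Western. Slc12a7 (KCC4) had 561.6 on C3H Western, 583.8 on C3H chow, 420.0 on C57BL/6 Western and 315.4 on C57BL/6 chow on its brighter probe set, so both C3H arrays were above both C57BL/6 arrays there, by 0.89 on chow and 0.42 on Western diet. Its other probe set had 186.2 on C3H Western, 188.0 on C3H chow, 198.0 on C57BL/6 Western and 66.1 on C57BL/6 chow. On that one C3H was at least 2.25-fold higher on chow, but on Western diet the difference was -0.09. Slc12a4 (KCC1, a cell volume regulator) had 293.3 on C3H Western, 269.8 on C3H chow, 286.3 on C57BL/6 Western and 307.5 on C57BL/6 chow. Its 1.14-fold range was the narrowest of the 96 members above the floor on all arrays. Slc12a9 had 290.7 on C3H Western against 77.9 on C57BL/6 Western, at least 3.48-fold higher, but 165.7 on C3H chow against 140.8 on C57BL/6 chow.

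Carriers of calcium and bicarbonate included some with both C3H arrays on the high side. Slc24a3 (NCKX3, which trades sodium for calcium and potassium) had 1054 on C3H Western, 1198 on C3H chow, 758.2 on C57BL/6 Western and 675.3 on C57BL/6 chow. Both C3H arrays were above both C57BL/6 arrays, by 0.48 on Western diet and 0.83 on chow, and the diet differences were -0.19 in C3H and 0.17 in C57BL/6. Slc8b1, the sodium-calcium exchanger of mitochondria, had 156.2 on C3H Western, 360.9 on C3H chow, 233.1 on C57BL/6 Western and 261.5 on C57BL/6 chow, a diet difference of -1.21 in C3H and -0.17 in C57BL/6. Slc8a1 (NCX1), the sodium-calcium exchanger of the surface of heart and smooth muscle cells, had 3 probe sets, all under the floor on all arrays, and so is no member.

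Slc4a4 (NBCe1), which brings bicarbonate with sodium into smooth muscle cells, had 4 members. The brightest had 814.8 on C3H Western, 1451 on C3H chow, 814.8 on C57BL/6 Western and 598.1 on C57BL/6 chow. C3H chow stood above the rest, by 1.28 over C57BL/6 chow and by 0.83 over C3H Western, while the Western arrays were equal (0.00). The next had 260.8 on C3H Western, 351.6 on C3H chow, 309.1 on C57BL/6 Western and 195.8 on C57BL/6 chow, with a strain difference on chow of 0.84. In C57BL/6 both were higher on Western diet, by 0.45 and 0.66. Slc4a2 (AE2, an exchanger of chloride for bicarbonate) had 124.7 on C3H Western, 513.9 on C3H chow, 239.6 on C57BL/6 Western and 286.8 on C57BL/6 chow. Its diet difference of -2.04 in C3H (4.12-fold) compares with -0.26 in C57BL/6. Slc4a3 (AE3, an exchanger known from heart and brain) had 220.5 on C3H Western, 176.6 on C3H chow, 110.7 on C57BL/6 Western and 221.2 on C57BL/6 chow, and lay at the 2-fold mark for diet in C57BL/6, with the Western array lower. Slc26a6, an anion exchanger of epithelia, was 1.12 higher in C3H on Western diet (199.9 against 92.2 in C57BL/6) and had 8.41 on C3H chow and 81.6 on C57BL/6 chow, both under the floor.

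Slc4a1 (band 3, the anion exchanger of red blood cells) had 127.8 on C3H Western and 146.3 on C3H chow, against 60.2 on C57BL/6 Western and 44.5 on C57BL/6 chow. This member probe set was at least 1.53-fold higher in C3H on Western diet and at least 1.75-fold on chow. The further Slc4a1 probe sets, which are no members, were each above the floor on a single C3H array and under it on the rest. These arrays were C3H Western and C3H chow, so neither probe set repeats the difference on both diets. The erythroid markers used (3 genes, Slc4a1 among them) summed to 2253 on C3H Western, 399 on C3H chow, 420 on C57BL/6 Western and 243 on C57BL/6 chow, with 2, 3, 1 and 1 of 3 above the floor on these arrays and Epb42 under it throughout. Alas2 made up most of the C3H Western sum, with 2116 there, 142.7 on C3H chow, 303.5 on C57BL/6 Western and 180.3 on C57BL/6 chow. Hba-a1 was lowest there, with 8.41, against 110.4 on C3H chow, 56.5 on C57BL/6 Western and 17.8 on C57BL/6 chow. The sum thus does not stand for the 3 genes alike. Their part in the Slc4a1 difference was not tested.

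Phosphate uptake by the artery wall is known to run through Slc20a1 (PiT-1) and Slc20a2 (PiT-2), of which the first is linked to calcification by smooth muscle cells. Slc20a1 had 106.4 on C3H Western, 302.4 on C3H chow, 204.6 on C57BL/6 Western and 166.0 on C57BL/6 chow on its brighter probe set. C3H chow was high and C3H Western low, -1.51 for diet in C3H against 0.30 in C57BL/6. Its dimmer probe set was above the floor on C3H chow (171.6) and C57BL/6 Western (120.8) and under it on C3H Western (36.8) and C57BL/6 chow (75.2), the same order of arrays. Slc20a2 stayed within 0.43 in every pair on both its probe sets, of which one had 202.4 on C3H Western, 181.9 on C3H chow, 187.9 on C57BL/6 Western and 211.6 on C57BL/6 chow.

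**Figure D3:**
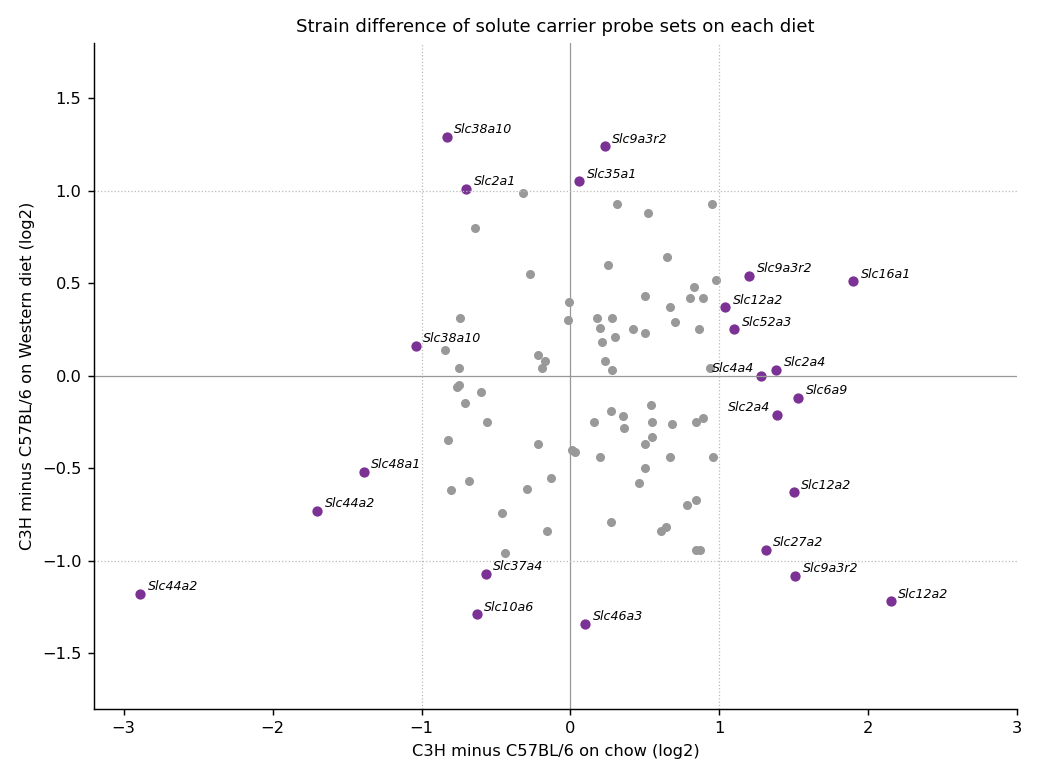
Log2 difference of C3H minus C57BL/6 on chow (x axis) against that on Western diet (y axis) for the 96 members above the floor on all 4 arrays; dotted lines mark 2-fold, and probe sets past it on either diet are named. Among these 96, Slc44a2 alone lies past 2-fold below 0 on both diets, and a probe set each of Slc12a2 and Slc9a3r2 lies past it in opposite directions.

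A choline carrier and a heme carrier had lower signals in C3H. Slc44a2 (CTL2, a choline transporter-like protein) had 219.1 on C3H Western, 101.0 on C3H chow, 497.8 on C57BL/6 Western and 746.8 on C57BL/6 chow on its brightest probe set. Both C3H arrays were under both C57BL/6 arrays, by -1.18 on Western diet (2.27-fold) and -2.89 on chow (7.39-fold), and of the 96 members above the floor on all arrays it was the only one past 2-fold in 1 direction on both diets. Of all 8740 such probe sets, 58 were past 2-fold higher in C3H on both diets and 81 lower. By bounds Slc39a3, Slc41a3 and Slc22a23, described below, passed 2-fold on both diets too, each on 1 probe set. The second probe set had 125.0 on C3H Western, 113.2 on C3H chow, 207.1 on C57BL/6 Western and 367.0 on C57BL/6 chow, with -0.73 on Western diet and -1.70 on chow. The third had 156.3 on C3H Western, 27.2 on C3H chow, 151.1 on C57BL/6 Western and 341.5 on C57BL/6 chow: on chow C3H was lower by at least 4.09-fold, and on Western diet the difference was 0.05. The 3 probe sets thus went the same way on chow, and 2 of 3 did so on Western diet; the suffix x of the brightest marks probes that may also bind other transcripts. The heart muscle sums were likewise lower on both C3H arrays (475 and 434, against 12189 and 15563 in C57BL/6), and their part in the strain differences of the carriers was not tested. In the limma fit without the filter on dim probe sets, the brightest passed for strain (adjusted p = 0.00630), the only member to do so, while in the filtered fit its adjusted p was 0.134.

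Slc44a1 (CTL1, the better known choline transporter) did not follow it. Its brighter probe set had 456.5 on C3H Western, 439.7 on C3H chow, 788.8 on C57BL/6 Western and 365.6 on C57BL/6 chow. C57BL/6 Western was the high array, 1.11 above C57BL/6 chow, whereas the other probe set gave 0.36 for diet in C57BL/6 and -0.75 in C3H.

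Slc48a1 (HRG1, which releases heme from lysosomes for iron recycling) had 550.1 on C3H Western, 437.8 on C3H chow, 573.2 on C57BL/6 Western and 742.4 on C57BL/6 chow. A further probe set had 202.4 on C3H Western, 185.0 on C3H chow, 289.5 on C57BL/6 Western and 486.5 on C57BL/6 chow. C57BL/6 chow was highest and C3H chow lowest on both, with strain differences of -0.76 and -1.39 on chow and -0.06 and -0.52 on Western diet. Slc40a1 (ferroportin, the only known iron exporter, used by macrophages) had 172.1 on C3H Western, 147.3 on C3H chow, 264.3 on C57BL/6 Western and 256.9 on C57BL/6 chow. Both C3H arrays were lower, by -0.62 on Western diet and -0.80 on chow. The other ferroportin probe set had 11.3 on C3H Western, 156.2 on C3H chow, 283.5 on C57BL/6 Western and 202.0 on C57BL/6 chow, with the same order between strains.

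Slc11a1 (NRAMP1, the divalent metal pump of phagosomes in macrophages and neutrophils) was nearly even: 197.0 on C3H Western, 260.5 on C3H chow, 259.2 on C57BL/6 Western and 258.1 on C57BL/6 chow. Macrophage markers (6 genes) summed to 4985 on C3H Western, 2801 on C3H chow, 3573 on C57BL/6 Western and 2879 on C57BL/6 chow, with 5 to 6 of 6 above the floor. Neutrophil markers (5 genes) summed to 2275 on C3H Western, 725 on C3H chow, 1803 on C57BL/6 Western and 601 on C57BL/6 chow, with 3 to 5 of 5 above it. The phagocyte sums were thus higher on the Western arrays, and Slc11a1 was not: its diet difference was -0.40 in C3H and 0.01 in C57BL/6. The part of phagocytes in the Slc11a1 signals was not tested. Slc11a2 (DMT1, the iron importer of endosomes) was 0.52 higher in C3H on Western diet and 0.98 on chow on its brightest probe set, with 215.2 on C3H Western, 197.7 on C3H chow, 150.5 on C57BL/6 Western and 100.3 on C57BL/6 chow. Another of its probe sets went the other way, with 93.0 on C3H Western, 74.4 on C3H chow, 124.9 on C57BL/6 Western and 101.5 on C57BL/6 chow, a strain difference of -0.42 on Western diet and at least 1.21-fold less in C3H on chow. The last had 116.6 on C3H Western, 142.7 on C3H chow, 83.6 on C57BL/6 Western and 36.7 on C57BL/6 chow, so no direction holds over the 3.

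Metal carriers, a class that holds those of zinc, copper and magnesium as well as the iron and heme carriers above, were many and mostly near even. Of 26 measured metal probe sets on chow, 1 was at least 2-fold higher in C3H and 3 lower, where 8.20% and 8.94% of all measured probe sets were. A probe set of the heme carrier Slc48a1 is among the lower ones. On Western diet none of 25 passed 2-fold either way, where 4.17% of all were higher and 4.24% lower. Their median was 0.09 on chow, and it turned to -0.12 with the values as deposited. Slc39a1 (ZIP1, a zinc importer of most cells) had 947.4 on C3H Western, 716.2 on C3H chow, 1228 on C57BL/6 Western and 834.4 on C57BL/6 chow. It was higher on Western diet in both strains, by 0.40 in C3H and 0.56 in C57BL/6, and lower in C3H on both diets. Slc39a13 (ZIP13, a zinc carrier needed for connective tissue) had 19.6 on C3H Western, 273.2 on C3H chow, 125.4 on C57BL/6 Western and 94.8 on C57BL/6 chow. On chow C3H was 1.53 higher, and within C3H the Western array was lower by at least 3.27-fold. Fibroblast and matrix markers (8 genes) summed to 31940 on C3H Western, 16463 on C3H chow, 24169 on C57BL/6 Western and 67399 on C57BL/6 chow, with 7 to 8 of 8 above the floor. Their part in the Slc39a13 differences was not tested.

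Slc39a3 (ZIP3) shows how far probe sets of 1 gene can part. Its first had 7.61 on C3H Western, 89.1 on C3H chow, 248.6 on C57BL/6 Western and 252.3 on C57BL/6 chow, so C3H was lower by 2.83-fold on chow and, by bound, at least 2.97-fold on Western diet. Its other had 181.1 on C3H Western, 282.5 on C3H chow, 116.0 on C57BL/6 Western and 180.4 on C57BL/6 chow, which is 0.65 on chow and 0.64 on Western diet. Slc31a2 (CTR2, a copper carrier of endosomes) had 297.1 on C3H Western, 127.9 on C3H chow, 161.0 on C57BL/6 Western and 89.2 on C57BL/6 chow. Western diet was the higher side in both strains on that probe set, by 1.22 and 0.85. Its other probe set was under the floor on 1 array of each strain. There Western diet was at least 1.57-fold higher in C3H but at least 1.56-fold lower in C57BL/6 (17.8 against 130.7 on chow). Slc41a3, related to magnesium carriers, had 39.5 on C3H Western, 115.5 on C3H chow, 270.3 on C57BL/6 Western and 356.2 on C57BL/6 chow, which is -1.63 on chow and, by bound, at least 3.23-fold less in C3H on Western diet. A further Slc41a3 probe set was also lower in C3H on chow, by at least 2.69-fold, and one was at least 1.68-fold higher. The zinc exporters of family 30 stayed under 2-fold in all pairs in which they were measured, apart from bounds such as Slc30a7, which loads the secretory pathway: Western diet gave at least 3.43-fold less in C57BL/6 (76.8 against 286.8 on chow) and at least 2.35-fold less in C3H (67.4 against 196.7).

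Amino acid carriers were the largest class, with 44 probe sets of 29 genes. Of 28 measured on chow, 1 was at least 2-fold higher in C3H (all probe sets 8.20%) and 1 was lower (all 8.94%), with a median of 0.27, and on Western diet the median was -0.06. Slc38a2 (SNAT2, a sodium-driven importer of small neutral amino acids) had 1067 on C3H Western, 797.3 on C3H chow, 858.2 on C57BL/6 Western and 656.4 on C57BL/6 chow. It was higher on Western diet in both strains, by 0.42 and 0.39, and higher in C3H on both diets, by 0.31 and 0.28. Slc6a9 (GlyT1, a glycine importer) had 267.6 on C3H Western, 356.0 on C3H chow, 291.0 on C57BL/6 Western and 123.0 on C57BL/6 chow. C57BL/6 chow was the low array, 1.53 under C3H chow and 1.24 under C57BL/6 Western. Its other probe set had 112.6 on C3H Western, 253.0 on C3H chow, 208.0 on C57BL/6 Western and 73.1 on C57BL/6 chow, with the same low array and the same high one.

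Slc6a6, the taurine transporter, had 280.3 on C3H Western, 315.4 on C3H chow, 327.8 on C57BL/6 Western and 170.0 on C57BL/6 chow, so C57BL/6 chow was again the low array, by 0.89 and 0.95. Slc6a8, the creatine transporter, had 775.5 on C3H Western, 754.6 on C3H chow, 623.6 on C57BL/6 Western and 665.2 on C57BL/6 chow on its brighter probe set, within 0.31 in every pair. On its other one C3H was lower instead, by -0.56 on chow and -0.25 on Western diet. Slc1a5 (ASCT2, a glutamine carrier) had 320.7 on C3H Western, 522.2 on C3H chow, 313.6 on C57BL/6 Western and 431.0 on C57BL/6 chow. It was lower on Western diet in both strains, by -0.70 and -0.46, and the strains differed by 0.28 at most. Slc1a3 (GLAST, a glutamate and aspartate carrier) had 3 probe sets with no common order. They gave strain differences on chow of 0.29 and 0.91 where measured, and each was under the floor on 1 array, a different one for each probe set.

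Slc7a6 (y+LAT2, which trades cationic for neutral amino acids as a light chain of Slc3a2) had 169.7 on C3H Western, 168.5 on C3H chow, 97.5 on C57BL/6 Western and 262.7 on C57BL/6 chow. C57BL/6 Western was the low array, -1.43 for diet in C57BL/6, while in C3H the difference was 0.01. The other Slc7a6 probe set had 228.0 on C3H Western, 128.0 on C3H chow, 41.5 on C57BL/6 Western and 224.7 on C57BL/6 chow, so Western diet was lower by at least 2.69-fold in C57BL/6 and the difference in C3H was 0.83. Slc7a11 (xCT, the cystine importer that feeds glutathione synthesis) had 135.9 on C3H Western and 254.8 on C3H chow, against 11.7 on C57BL/6 Western and 56.7 on C57BL/6 chow. It was above the floor in C3H only, at least 1.63-fold higher on Western diet and at least 3.05-fold on chow. Slc7a10 had 148.8 on C3H Western, 117.1 on C3H chow, 100.9 on C57BL/6 Western and 22.6 on C57BL/6 chow, with differences of 0.35 for diet in C3H and 0.56 for strain on Western diet. Slc7a2, an arginine carrier that supplies nitric oxide synthase in macrophages, lay near the floor, with 92.6 on C3H Western, 98.9 on C3H chow, 114.6 on C57BL/6 Western and 15.2 on C57BL/6 chow.

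Slc38a10, a glutamine carrier, had 6 members, the most of any gene along with Slc9a3r2. Its brightest had 1106 on C3H Western, 964.6 on C3H chow, 727.9 on C57BL/6 Western and 808.6 on C57BL/6 chow, all within 0.60 of each other in each pair. Another had 413.2 on C3H Western, 229.6 on C3H chow, 168.5 on C57BL/6 Western and 409.4 on C57BL/6 chow, 1.29 higher in C3H on Western diet and -1.28 for diet in C57BL/6. A further one had 449.3 on C3H Western, 161.3 on C3H chow, 401.1 on C57BL/6 Western and 331.2 on C57BL/6 chow, 1.48 for diet in C3H. These probe sets share no order of the arrays, so no direction is given for the gene.

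The same spread holds more widely. On chow, 25 genes had several measured probe sets, whose strain differences had a pooled SD of 0.60 within a gene, against an SD of 0.90 over the same probe sets. On Western diet these were 0.63 and 0.59 over 20 genes, so probe sets of 1 gene were no closer than those of different genes. For diet they were 0.74 and 0.80 in C3H (25 genes) and 0.45 and 0.54 in C57BL/6 (23 genes). Of 8 genes with a 2-fold probe set on chow, 6 had all probe sets in 1 direction, and in 3 (Slc12a2, Slc2a4 and Slc44a2) all measured probe sets passed 2-fold. On Western diet none of 5 such genes had 1 direction. For diet in C3H it was 5 of 7, with all measured probe sets past 2-fold in Slc2a4 and Slc35a1, and in C57BL/6 3 of 4.

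Nucleotide sugar carriers, which feed glycosylation, had medians near 0 (0.06 for strain on chow, 0.00 on Western diet, 0.19 for diet in C3H and 0.11 in C57BL/6). Slc35a1, the CMP-sialic acid carrier, went beyond them: one probe set had 206.4 on C3H Western, 98.9 on C3H chow, 99.6 on C57BL/6 Western and 94.8 on C57BL/6 chow. C3H Western was the high array, 1.06 above C3H chow and 1.05 above C57BL/6 Western. Its other probe set had 288.6 on C3H Western, 141.9 on C3H chow, 66.7 on C57BL/6 Western and 145.2 on C57BL/6 chow, 1.02 for diet in C3H and at least 3.45-fold higher in C3H on Western diet. Both diet calls lost 2-fold with the values as deposited and with cyclic loess, where the class held no call in C3H. Slc35b2, which carries the sulfate donor PAPS, had 22.8 on C3H Western, 160.0 on C3H chow, 238.7 on C57BL/6 Western and 239.1 on C57BL/6 chow, so C3H was lower by at least 2.86-fold on Western diet and by -0.58 (log2) on chow. Slc35b1 was even across the arrays, from 341.9 to 454.7.

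**Figure D4:**
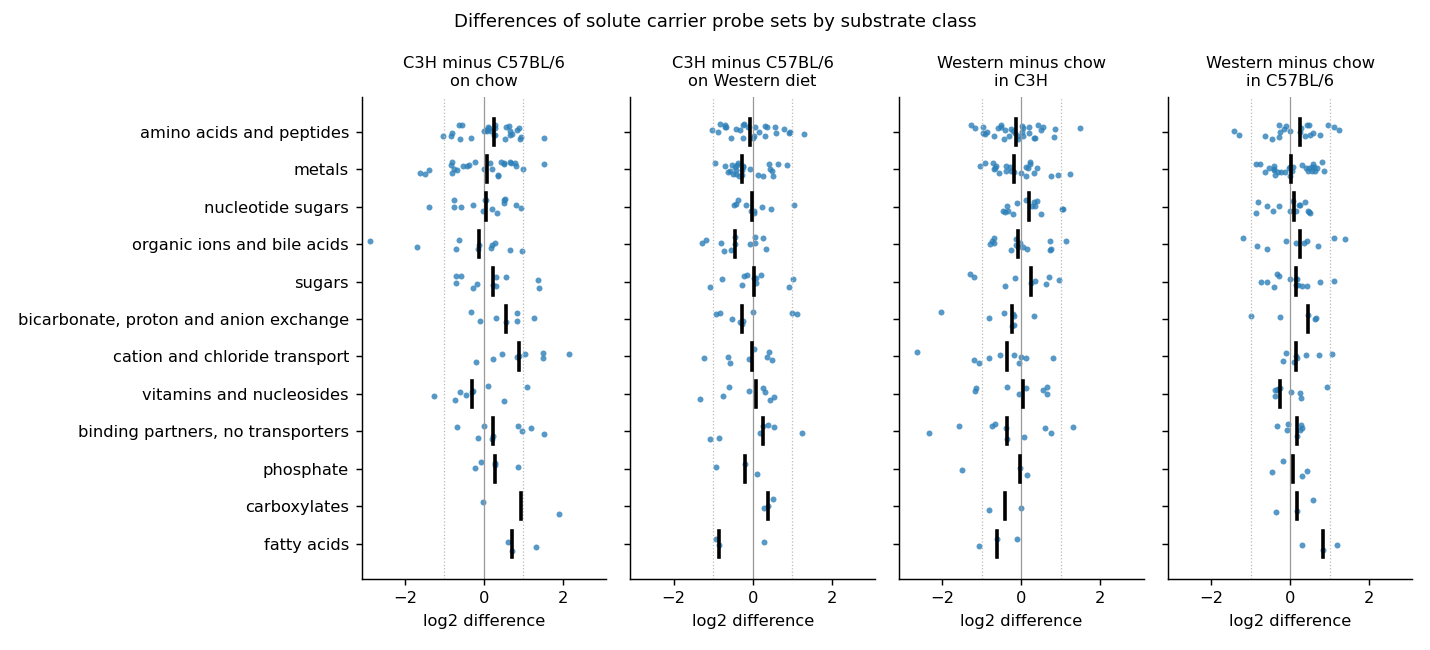
Log2 differences of the measured solute carrier probe sets (points) by substrate class (rows) in the 4 comparisons (panels), with the class median as a bar and 2-fold dotted. Cation and chloride transport lies mostly right of 0 for strain on chow, and the fatty acid carriers lie left of 0 for diet in C3H and right of it in C57BL/6.

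Among carriers of organic ions and bile acids, Slc10a6 (SOAT, a carrier of sulfated steroids) had 195.3 on C3H Western, 118.3 on C3H chow, 477.9 on C57BL/6 Western and 183.1 on C57BL/6 chow. C57BL/6 Western was the high array, and Western diet was the higher side in both strains, by 0.72 in C3H and 1.38 in C57BL/6. C3H was lower on both diets, by -1.29 and -0.63. Slc22a23, an orphan of the organic ion family, had 261.0 on C3H Western and 286.3 on C3H chow, against 12.4 on C57BL/6 Western and 56.3 on C57BL/6 chow. It was above the floor in C3H only, at least 3.12-fold higher on Western diet and at least 3.43-fold on chow.

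Of 9 measured nucleoside and vitamin probe sets on chow, 1 was at least 2-fold higher in C3H (all probe sets 8.20%) and 1 lower (all 8.94%). On Western diet none of 8 was higher (all 4.17%) and 1 was lower (all 4.24%). For diet in C3H none of 8 was higher (all 6.40%) and 2 were lower (all 5.95%). In C57BL/6 none of 9 passed 2-fold (all 3.79% higher and 3.97% lower). Slc29a1 (ENT1, which takes up adenosine) had 500.8 on C3H Western, 459.4 on C3H chow, 531.6 on C57BL/6 Western and 698.7 on C57BL/6 chow, with no pair past 0.60 in size. Slc52a3, a riboflavin carrier, had 173.0 on C3H Western, 389.9 on C3H chow, 145.5 on C57BL/6 Western and 182.3 on C57BL/6 chow, high on C3H chow by 1.10 over C57BL/6 chow (0.96 with equal array medians) and lower on Western diet in C3H (-1.17). Slc46a3, a lysosomal protein of the folate carrier family, had 92.4 on C3H Western, 203.8 on C3H chow, 233.7 on C57BL/6 Western and 190.7 on C57BL/6 chow. C3H Western was the low array, -1.34 against C57BL/6 Western and -1.14 against C3H chow. Slc46a1, the proton-coupled folate carrier, had a strain difference of -1.27 on chow, and in C57BL/6 its Western array was lower by at least 2.69-fold (78.3 against 225.1 on chow).

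The binding partner Slc9a3r2 (NHERF2, a PDZ scaffold for ion carriers and receptors) had 6 members. One had 120.3 on C3H Western, 614.6 on C3H chow, 254.2 on C57BL/6 Western and 215.2 on C57BL/6 chow, 1.51 higher in C3H on chow and -1.08 on Western diet, with a diet difference of -2.35 in C3H. Another had 314.0 on C3H Western, 126.5 on C3H chow, 132.7 on C57BL/6 Western and 107.9 on C57BL/6 chow, with its high array in C3H Western instead (1.24 for strain on Western diet and 1.31 for diet in C3H). On chow all 5 measured probe sets of Slc9a3r2 were above 0, from 0.23 to 1.51.

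**Figure D5:**
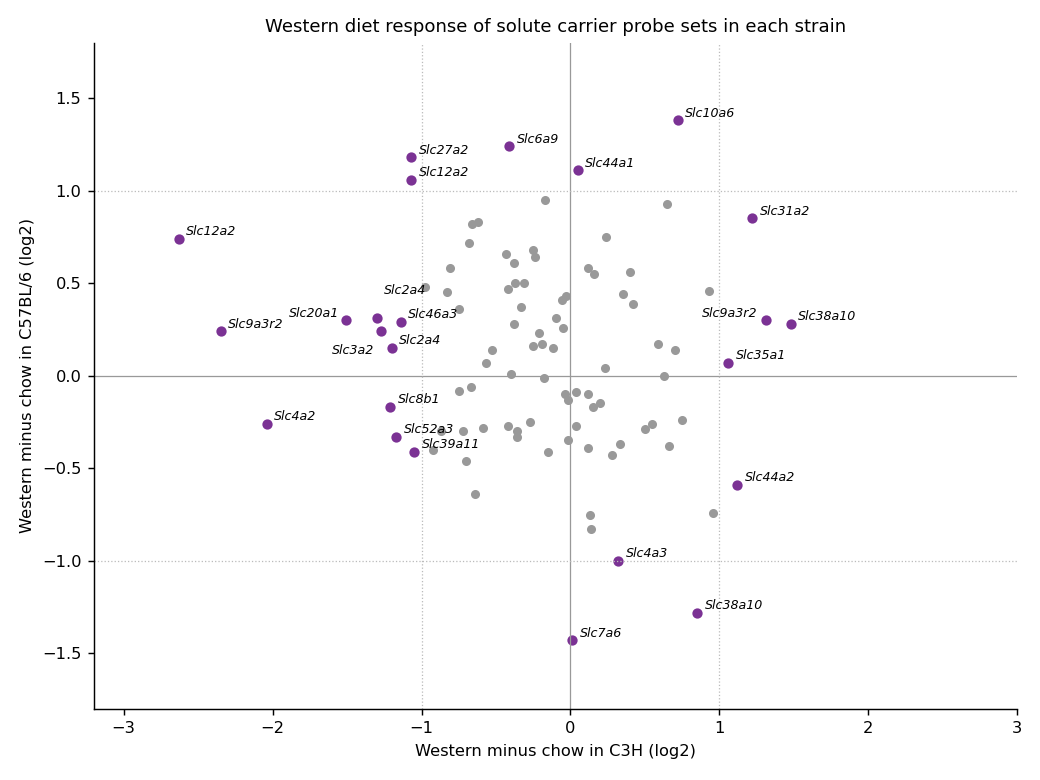
Log2 difference of Western diet minus chow in C3H (x axis) against that in C57BL/6 (y axis) for the 96 members above the floor on all 4 arrays; dotted lines mark 2-fold, and probe sets past it in either strain are named. None lies past 2-fold in the same direction in both strains, and Slc27a2 and a probe set of Slc12a2 lie past it below 0 in C3H and above 0 in C57BL/6.

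Diet and strain differences were little shared. Over the 96 members above the floor on all arrays, strain differences on chow and on Western diet had the same sign for 49 and correlated at 0.05 (Pearson; Spearman 0.03), against 0.12 and 0.08 over all 8740 such probe sets. Diet differences in C3H and in C57BL/6 had the same sign for 38 and correlated at -0.13 by both measures, against -0.10 and -0.11 over all. These correlations are across probe sets, which share their arrays and genes and are no replicates. Of these 96, none passed 2-fold for diet in the same direction in both strains. Of all 8740 such probe sets, 23 were past 2-fold higher on Western diet in both strains and 19 lower. Where bounds are counted, for which no share over all probe sets is given, 3 members passed 2-fold in the same direction. Slc6a18 and Slc30a7 were lower on Western diet in both strains, and Slc38a1 was higher. Of the 96, in opposite directions 2 did so for diet (2.08%, all probe sets 0.652%) and 2 for strain (2.08%, all 0.538%).

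Some members were above the floor on just 2 arrays. Of the 201, 14 (6.97%) were so on both C3H arrays only, against 3.76% of the 14913 probe sets above the limit on at least 2 arrays, and 6 (2.99%) on both C57BL/6 arrays only, against 3.57%. On both Western arrays only it was 6 (2.99%, all 3.15%), and on both chow arrays only 11 (5.47%, all 3.43%). The signal rule chose these probe sets by the same values, so the counts are a description. Slc7a11 and Slc22a23, given above, are of the C3H kind. So is Slc22a29, of the organic anion carriers, with 118.8 on C3H Western and 205.7 on C3H chow, against 19.6 on C57BL/6 Western and 47.5 on C57BL/6 chow, and both probe sets of Slc35b4, a UDP-xylose and UDP-GlcNAc carrier, with 124.1 and 200.1 on C3H Western and 94.9 and 159.9 on C3H chow, against at most 67.6 on a C57BL/6 array. Slc10a2 (ASBT, the bile acid importer of the ileum) also belongs here, with 123.8 on C3H Western and 135.4 on C3H chow and both C57BL/6 arrays under the floor.

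Probe sets above the floor on chow alone include carriers known from kidney and liver. Slc6a18, a neutral amino acid carrier of the kidney tubule, had 69.5 on C3H Western and 268.8 on C3H chow, and 60.6 on C57BL/6 Western and 245.1 on C57BL/6 chow. Western diet was thus the lower side in both strains, by at least 3.22-fold and at least 2.93-fold. Slc10a1 (NTCP, the bile acid importer of liver) had 6.36 on C3H Western and 150.0 on C3H chow, and 7.24 on C57BL/6 Western and 165.9 on C57BL/6 chow. The sulfate carrier Slc26a2, needed to sulfate cartilage proteoglycans, did so on both its members, with 12.7 and 29.9 on C3H Western, 145.9 and 109.1 on C3H chow, 14.3 and 60.3 on C57BL/6 Western, and 117.7 and 116.5 on C57BL/6 chow. Slc5a1 (SGLT1, a glucose importer of gut) was nearer the floor, with 39.6 on C3H Western, 134.2 on C3H chow, 75.1 on C57BL/6 Western and 90.6 on C57BL/6 chow. Above it on Western diet alone were Slc26a3 (86.6 on C3H Western and 104.5 on C57BL/6 Western), Slc26a5 (87.4 and 154.7 on the same arrays) and Slc26a6, of the same family as Slc26a2. Most of these values lie within 2-fold of the floor, and no group has a replicate.

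Further members that differed most by bound or by measure were mixed between their probe sets. Slc39a6 (ZIP6, a zinc importer) had 201.0 on C3H Western, 8.56 on C3H chow, 149.1 on C57BL/6 Western and 214.8 on C57BL/6 chow on one, so C3H chow alone was under the floor. Its other had 138.7 on C3H Western, 228.2 on C3H chow, 165.3 on C57BL/6 Western and 203.6 on C57BL/6 chow, with C3H chow the highest. Slc35e1 parted in the same way: 199.0 on C3H Western, 53.3 on C3H chow, 272.9 on C57BL/6 Western and 198.1 on C57BL/6 chow on one, but 309.6 on C3H chow as the highest of 4 on the other. Slc35a4 had 211.0 on C3H Western, 31.2 on C3H chow, 31.8 on C57BL/6 Western and 157.4 on C57BL/6 chow on its dimmer probe set, while its brighter one stayed within 259.2 to 436.3.

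The UDP-galactose carrier Slc35a2 had 3 members with 3 patterns. One was above the floor on both Western arrays only (217.5 in C3H and 157.1 in C57BL/6). One was above it on both C3H arrays only (133.1 on Western diet and 123.5 on chow). The last was under it on C3H Western alone (52.3, against 284.5 on C3H chow). Slc35a5, an orphan of the family, was lower in C3H on chow by -1.40 (89.7 against 236.7) and had 59.9 on C3H Western against 135.8 on C57BL/6 Western. Slc38a1 (SNAT1, a glutamine importer) had 189.1 on C3H Western, 8.69 on C3H chow, 181.2 on C57BL/6 Western and 84.2 on C57BL/6 chow. Western diet was the higher side in both strains, by 1.11 in C57BL/6 and at least 2.26-fold in C3H.

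The zinc, copper and magnesium carriers named next stayed under 2-fold in every pair in which they were measured. Slc39a14 (ZIP14, which also takes up iron) had 389.6 on C3H Western, 440.2 on C3H chow, 327.6 on C57BL/6 Western and 330.0 on C57BL/6 chow on its brighter probe set, while its dimmer one gave -0.82 for strain on chow and 0.93 for diet in C3H. Slc39a7 (ZIP7, which releases zinc from the endoplasmic reticulum) had 382.7 on C3H Western, 499.5 on C3H chow, 539.8 on C57BL/6 Western and 354.4 on C57BL/6 chow, within 0.61 in every pair. Among zinc exporters, Slc30a5 of the Golgi apparatus had 270.6 on C3H Western, 274.1 on C3H chow, 400.9 on C57BL/6 Western and 438.9 on C57BL/6 chow, lower in C3H on both diets by -0.57 and -0.68. Slc30a6, with which it pairs, ran the other way, by 0.42 and 0.80 (282.3 on C3H Western, 252.0 on C3H chow, 211.2 on C57BL/6 Western and 144.5 on C57BL/6 chow). Slc30a1 (ZnT1, the zinc exporter of the cell surface) had 153.8 on C3H Western, 81.7 on C3H chow, 181.2 on C57BL/6 Western and 115.9 on C57BL/6 chow. It was higher on Western diet in both strains, by at least 1.84-fold in C3H and by 0.64 (log2) in C57BL/6. The copper importer Slc31a1 (CTR1) had 106.4 on C3H Western, 201.1 on C3H chow, 206.7 on C57BL/6 Western and 272.8 on C57BL/6 chow on one probe set, lower on Western diet in both strains by -0.92 and -0.40, and lower in C3H on Western diet by -0.96. Its other probe set had 215.8 on C3H Western, 186.1 on C3H chow, 23.5 on C57BL/6 Western and 146.5 on C57BL/6 chow. There C3H was at least 2.58-fold higher on Western diet and the diet difference in C3H was 0.21, so the probe sets part. The magnesium carrier Slc41a1 had 287.9 on C3H Western, 454.0 on C3H chow, 467.0 on C57BL/6 Western and 263.7 on C57BL/6 chow. Its diet differences of -0.66 in C3H and 0.82 in C57BL/6 have the signs seen for Slc27a2.

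Other transporters give a setting for these counts. Of 44 measured mitochondrial Slc25 probe sets on chow, 8 were at least 2-fold higher in C3H and 2 lower, with a median of 0.36, where 8.20% and 8.94% of all measured probe sets were. For diet in C3H 2 were higher and none lower (all 6.40% and 5.95%). P-type ion pumps ran the other way on chow, with 1 of 15 at least 2-fold higher (all 8.20%) and 5 lower (all 8.94%) and a median of -0.41. ABC transporters had 4 of 19 at least 2-fold higher (all 3.79%) and 1 lower (all 3.97%) on Western diet in C57BL/6, with a median of 0.51. The differences between these lists and the Slc carriers were not tested. Of the carriers singled out for the artery wall, fat and blood cells, 22 of 29 on the array had a member. Besides Slc8a1, the 6 without one were Slc7a5, Slc7a1, Slc39a8, Slc15a3, Slc37a2 and Slc5a3, and Slc36a2 and Slc4a7 were not analysed here.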

How the data were processed

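RNA of 4 aortic samples, 1 per group, was labelled with biotin from 8 ug of total RNA and hybridised to a 1-colour Affymetrix array, per the labels' protocols. The deposited values are linear intensities on a common scale (their means after trimming 2% at each end are 250.11 to 250.12, their medians 110.3 to 128.1). No source used here names the software that made them, and no detection calls came with them. Controls (64 probe sets) were left out, and the rest were quantile normalised on the log2 scale with limma 3.58.1 (R 4.3.3). Symbols came from the platform annotation, in which 20380 of 22626 probe sets name 1 gene, and all 201 members matched the RefSeq gene table of GRCm38.p6 under the same symbol. Promoter sequences are those of RefSeq in that build.

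Differences between 2 arrays were counted at 2-fold with no test. The additive limma fit used eBayes with a mean trend (17.3 prior degrees of freedom) and Benjamini-Hochberg adjustment over the 14915 probe sets that exceeded the floor on 2 or more arrays, and was tested on simulated data. With 2 arrays a side, an exact permutation test reaches p = 0.333 at the lowest. Genes were named by rule: the largest measured and bounded differences per direction, those past 2-fold in both pairs, the highest mean signals, up to 4 per family of 4 or more, and a list of carriers known from artery, fat and blood cells. Slc52a3, Slc8b1, Slc27a4, Slc35b4, Slc16a11, Slc16a4 and Slc13a2 fall outside that rule and were added for their class or pattern after their values were seen. The members, lists and tests were chosen with earlier results of these data known. Alternatives were other scalings (deposited values, equal medians of the arrays, cyclic loess), a floor at the 25th or the 60th percentile, a single probe set for each gene, 1.5-fold, and limma without the filter or the mean trend. Python 3.11.15 with pandas 2.3.3, numpy 2.4.6, scipy 1.17.1 and matplotlib 3.10.9 did the rest. Precision is limited throughout by there being 4 arrays.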

Additional observations from a re-analysis of the deposited data

Results flagged for a closer look

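Effects ran past 2-fold in opposite directions for 4 results, and none of these differences was tested, since each rests on 4 single arrays. For strain, the first Slc12a2 probe set was 2.15 higher in C3H than in C57BL/6 on chow and -1.22 on Western diet, a difference of 3.37 on the log2 scale. A probe set of Slc9a3r2 was 1.51 on chow and -1.08 on Western diet, a difference of 2.59. For diet, Slc27a2 was -1.07 in C3H and 1.18 in C57BL/6, a difference of -2.26, and the third Slc12a2 probe set was -1.07 in C3H and 1.06 in C57BL/6, a difference of -2.13. With equal array medians both C3H diet differences fell short of 2-fold, at -0.88 for Slc27a2 and -0.97 for the third Slc12a2 probe set, with the same signs. All 4 involve the C3H chow array, on which the brown adipocyte markers summed to 85053, against 43127 to 57606 on the other arrays. The single markers were higher there by unlike sizes, and their part in these results was not tested.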

How the results depend on the processing

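No paired analysis was possible because each group has 1 array, and no array could be left out of the limma fit, which has 1 residual degree of freedom. No member difference past 2-fold changed sign under the other scalings, nor did the median over all measured members under any alternative. Of 1128 recomputed differences of named probe sets, 26 turned sign, all 0.19 or less in size as reported, and each of the 1128 moved by less than the spread between probe sets of a gene. Of 162 recomputed class medians 9 turned, all 0.09 or less in size as reported, the metals on chow among them. Of 21 probe sets past 2-fold for diet in C3H, 17 to 18 stayed past it under each scaling; with equal array medians Slc27a2 (-0.88), a probe set each of Slc12a2 (-0.97) and Slc2a4 (-0.94), and Slc39a11 (-0.97) did not. Which direction had more members past 2-fold turned for strain on Western diet, to 8 higher and 7 lower with the values as deposited and 18 higher and 15 lower with a floor at the 25th percentile, against 5 and 7 as reported. Counts of members past 2-fold moved by over 1.5 times as follows, and the cause was not tested beyond the setting itself. Each is given with the number measured in that setting, which was 127 to 139 as reported and moved with the floor. A count can thus move because fewer or more probe sets were measured. No share over all probe sets is given for these settings. With cyclic loess 5 of 130 were lower in C3H on chow. With the values as deposited 8 of 126 were higher in C3H on Western diet and 3 of 144 higher on Western diet in C3H. With a floor at the 25th percentile, which admits dimmer probe sets, 27 of 165 were higher in C3H on chow. On Western diet 18 of 161 were higher in C3H and 15 lower. For diet, 25 of 168 were lower in C3H, and 15 of 160 were higher and 14 lower in C57BL/6. With a floor at the 60th percentile 8 of 73 were higher and 2 lower in C3H on chow, against 14 and 8 of 136 as reported. On Western diet 2 of 68 were higher in C3H and 3 lower. For diet, 1 of 72 was higher and 6 lower in C3H, and 3 of 71 were higher and 1 lower in C57BL/6. With 1 probe set per gene 4 of 101 were lower in C3H on chow and 1 of 92 higher on Western diet. For diet, 3 of 101 were higher in C3H and 1 of 92 was lower in C57BL/6. At 1.5-fold 40 of 136 were higher and 26 lower in C3H on chow, and 13 of 127 higher and 27 lower on Western diet. For diet, 21 of 139 were higher and 37 lower in C3H, and 21 of 127 were higher and 14 lower in C57BL/6. Without the filter 1 member passed limma for strain, and none did in the other limma settings. The number of members was 200 with the limit taken over quantile normalised values and 201 with controls included. Dim probe sets near the floor carry bounds and not levels.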
